A study of Mus musculus with 4 samples.

Results

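MB49 is a mouse bladder carcinoma line, and carcinoma cells that carry its transcripts were carried along in 4 tumour libraries sorted for CD45+ CD8+ T cells. They were chosen from the deposited UMI counts: a barcode was kept when it had 1000 or more UMIs (unique molecular identifiers, 1 for each captured transcript), 500 or more genes and no more than 10% mitochondrial UMIs. A kept barcode counted as a tumour cell when Wfdc2, Rhox5, Tm4sf1, Krt8 and Krt18 together reached 20 UMIs, the CD3 genes Cd3d, Cd3e and Cd3g together had at most 1 UMI, the collagen genes Col3a1 and Col1a1 together stayed under 20 and Lyz2 stayed under 20. This gave 291 tumour cells among 37151 kept barcodes: 17 of 8410 in the KO library, 112 of 9405 in the WT library, 77 of 8798 in the Aged library and 85 of 10538 in the Young library. The 5 marker genes, the CD3, collagen and Lyz2 counts were the measured values that made the choice, so their levels below are descriptions only.

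The KO library came from subcutaneous MB49 tumours of BFAR-CD8-KO mice, in which the ubiquitin ligase gene Bfar is lacking in CD8+ T cells, and the WT library from tumours of wild-type mice; both hosts were C57BL/6Slac and 10 to 12 weeks old. The Aged and Young libraries came from MB49 tumours in Rag1-/- hosts of 8 to 10 weeks, which lack their own T and B lymphocytes and still have NK and myeloid cells. These hosts were given CD8+ T cells intravenously on the day of tumour inoculation, from donors of 18 months (Aged, strain label B6.129S7-Rag1tm1Mom/J) or 8 weeks (Young, strain label B6.129S7-Rag1tm0Mom/J). Each library pooled 3 mice, each group had 1 library, and the KO and WT libraries used a 3′ kit while the Aged and Young libraries used an immune profiling kit, so ratios are given only within each pair. The injected line itself was the same named line in every group: the deletion and the donor age belonged to the T cells around the tumour cells. With 1 library a group no test between conditions was possible, and every interval below is an exact 95% interval for counting error only, which does not cover differences between mice, sorts or libraries.

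Carcinoma cells display peptides from their own proteins on MHC class I, whose heavy chains pair with B2m and are loaded through the Tap transporter. MHC class II is usually a property of antigen-presenting cells, but many epithelial cells switch it on when interferon gamma, a cytokine made by activated CD8+ T cells and NK cells, acts through its receptor chains Ifngr1 and Ifngr2 and induces Ciita, the coactivator of class II genes. The proximal promoters of class II genes share a conserved X box, bound by the RFX complex, and a Y box, an inverted CCAAT element bound by NF-Y, while many interferon-induced genes hold an interferon-stimulated element or a gamma-activated site.

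The windows of 250 bases upstream of the annotated start (RefSeq, GRCm38.p6, 5′ to 3′ on the gene's strand) are shown for 5 genes whose levels differed by library in the tumour cells. In the 3 class II windows, capitals mark the X box core searched as CTNGNAAC and the Y box core searched as ATTGG or, on the other strand, CCAAT. In Gbp2 and Igtp, capitals mark the interferon-stimulated element, searched as GAAA, 2 bases of any kind and GAAA again, on either strand, and in Igtp also TTCNNNGAA, the gamma-activated site, which there overlaps a match to the X box core, so that the capitals run over both. H2-Aa encodes the class II alpha chain of I-A, H2-Eb1 the beta chain of I-E, H2-DMb1 a chain of the peptide-loading chaperone H2-DM, and Gbp2 and Igtp are interferon-induced GTPases.
H2-Aa, chr17:34287824-34288073, minus strand: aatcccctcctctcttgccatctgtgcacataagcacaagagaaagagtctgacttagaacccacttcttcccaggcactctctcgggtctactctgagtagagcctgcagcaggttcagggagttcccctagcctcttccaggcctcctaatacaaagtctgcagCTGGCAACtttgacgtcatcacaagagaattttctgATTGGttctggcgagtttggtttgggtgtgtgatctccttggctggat
H2-Eb1, chr17:34305617-34305866, plus strand: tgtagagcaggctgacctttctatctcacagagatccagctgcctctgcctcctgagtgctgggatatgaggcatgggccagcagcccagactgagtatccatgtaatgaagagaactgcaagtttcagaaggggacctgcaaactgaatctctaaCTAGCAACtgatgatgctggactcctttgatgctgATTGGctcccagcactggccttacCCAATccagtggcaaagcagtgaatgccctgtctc
H2-DMb1, chr17:34152941-34153190, plus strand: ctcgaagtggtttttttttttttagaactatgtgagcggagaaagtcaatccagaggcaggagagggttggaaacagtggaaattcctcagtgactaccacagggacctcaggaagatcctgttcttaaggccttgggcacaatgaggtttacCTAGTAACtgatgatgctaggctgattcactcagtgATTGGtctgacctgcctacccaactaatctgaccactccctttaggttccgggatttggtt
Gbp2, chr3:142620413-142620662, plus strand: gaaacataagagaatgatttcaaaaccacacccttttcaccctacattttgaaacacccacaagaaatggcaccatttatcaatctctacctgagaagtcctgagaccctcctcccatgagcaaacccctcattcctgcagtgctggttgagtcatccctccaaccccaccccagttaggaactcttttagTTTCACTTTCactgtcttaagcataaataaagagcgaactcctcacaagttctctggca
Igtp, chr11:58199306-58199555, plus strand: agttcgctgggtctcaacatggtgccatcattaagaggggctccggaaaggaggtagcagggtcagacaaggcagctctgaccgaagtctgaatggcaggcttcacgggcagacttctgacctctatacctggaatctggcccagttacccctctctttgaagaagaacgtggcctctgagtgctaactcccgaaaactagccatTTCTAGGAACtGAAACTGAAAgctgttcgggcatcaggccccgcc
The X box core began 84 bases before the start of H2-Aa, 94 before H2-Eb1 and 97 before H2-DMb1, and the Y box core followed at 48, 59 and 61 bases in the same order of genes. Of the 7 class II genes listed, 4 had a window, 3 of these held both cores and 4 held the Y box core. Both cores together occurred in 4.33% of all 27025 genes with a window, the X box core in 12.5% and the Y box core in 37.5%. Of the 23 genes of the interferon gamma list, 16 had a window. The interferon-stimulated element was in 9 of them and the gamma-activated site in 7, and Cxcl9 held neither. Over all 27025 genes with a window the shares were 3.46% and 8.13%. These are matches of letters and say nothing of binding in the tumour cells.

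The tumour cells were deep, epithelial and nearly free of T cell transcripts. Their share of kept barcodes was 0.202% in KO (exact binomial interval 0.118 to 0.323), 1.19% in WT (0.982 to 1.43), 0.875% in Aged (0.691 to 1.09) and 0.807% in Young (0.645 to 0.996). The sort for CD45+ CD8+ cells can set these shares, so they are not shares of the tumour. The cells summed to 854433 UMIs in KO and 4325662 in WT, and 2039558 in Aged and 1621512 in Young. Their median depth was 47967, 37114.5, 25507 and 14756 UMIs in the KO, WT, Aged and Young libraries, against 6821, 6331, 5661 and 4450 UMIs in the other kept barcodes of the same libraries. Their median number of detected genes was 6156, 5430, 4915 and 3654, against 2091, 2030, 2093 and 1744 in the other barcodes. The tumour cells were thus several times deeper than the other barcodes in every library, and every KO level rests on 17 cells. No tumour cell barcode was shared between libraries, while 19 kept barcodes were shared by KO and WT, 136 by Aged and Young, 1 by KO and Aged and 1 by KO and Young.

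The choice cut through a larger set. Of 710 kept barcodes with at least 20 marker UMIs, 174 were set aside for the CD3 limit alone, 178 for the collagen limit alone and 67 for both. Among the 291 tumour cells, 236 had no CD3 UMI and 55 had 1. Their marker sum ran between 52 and 897 UMIs in KO (median 317), 25 and 1653 in WT (median 220.5), 20 and 1283 in Aged (median 146) and 20 and 701 in Young (median 97). Near the limit, 19 tumour cells had 20 to 29 marker UMIs and 27 barcodes that met every other criterion had 10 to 19. The cells just inside had a median of 3617 UMIs in WT, 5288.5 in Aged and 2989 in Young, and there was none in KO.

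**Figure D1:**
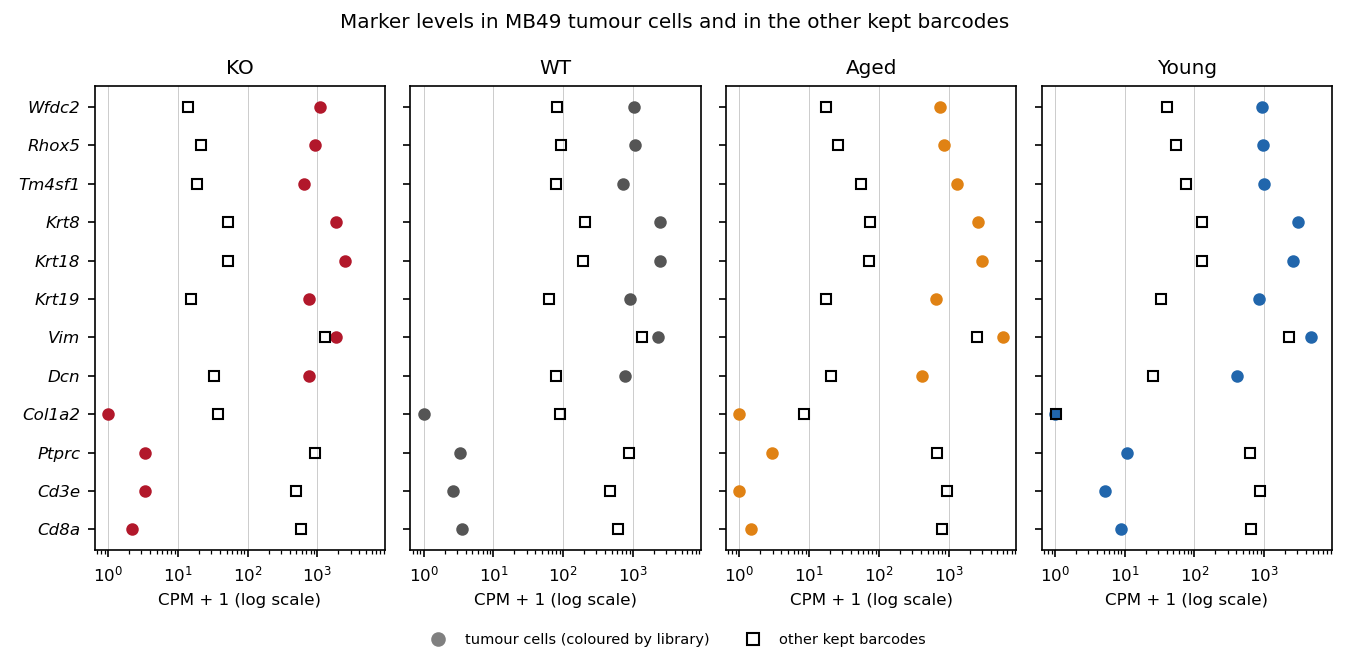
Level of 12 genes in the tumour cells (filled circles) and in all other kept barcodes (open squares) of the KO, WT, Aged and Young libraries, as CPM plus 1 on a log axis. The 5 marker genes and Krt19 lie far to the right in the tumour cells, Ptprc, Cd3e and Cd8a far to the left, and Col1a2 is at 0 in the tumour cells of all 4 libraries.

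The levels of the marker genes were fixed by the rule and describe the choice. Levels are given as CPM, the UMIs of a gene divided by all UMIs of the cells of a set and scaled to a total of 1000000. Rhox5, an X-linked homeobox gene that is often expressed in mouse tumour lines, had 925 CPM in KO and 1065 in WT, and 848 in Aged and 952 in Young tumour cells, against 20.3, 91.4, 25.2 and 53.2 CPM in the other barcodes of the same libraries. Wfdc2, a secreted protease-inhibitor-like protein, had 1101, 1044, 758 and 943 CPM in the tumour cells of KO, WT, Aged and Young, against 13.1, 79.6, 16.8 and 40.1 CPM in the other barcodes. Krt18, the partner of Krt8 in the filaments of simple epithelia, had 2519, 2430.2, 3003 and 2579 CPM in the tumour cells, against 51.3, 192, 71.4 and 126 CPM. These chose the cells; 1 marker at 0 did not remove a cell, and Wfdc2 had no UMI in 30 of the 291, Tm4sf1 in 9 and Rhox5 in 6.

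Genes that the rule did not read were described as well. The cells were chosen by their transcripts, so these levels are no independent check of the label. Krt19, a further simple-epithelial keratin, had 770.1 CPM in KO and 900.0 in WT, and 652 in Aged and 839 in Young tumour cells, against 14.6, 61.3, 16.5 and 32.3 CPM in the other barcodes. Ptprc, which encodes CD45, had 2.34, 2.31, 1.96 and 9.87 CPM in the tumour cells of KO, WT, Aged and Young, against 929, 867, 688 and 634 CPM in the other barcodes, and it had no UMI in 269 of the 291 cells. The tumour cells thus lacked the CD45 transcript for which the cells had been sorted. The summed level of 13 T cell markers was 49.2, 53.4, 14.7 and 70.9 CPM in the tumour cells, against 8743, 8479, 7739 and 6879 CPM. These markers include the CD3 genes that the rule limited, so their sum describes the choice and is likewise no check of the label. Xist, the RNA of the inactive X chromosome, had 1.17 CPM in KO tumour cells and 5.55 CPM in WT tumour cells, against 1245 and 1020 CPM in the other barcodes of KO and WT. It had no UMI in Aged or Young tumour cells, and 0.102 CPM in the other Aged and 0 CPM in the other Young barcodes. Xist therefore does not tell the cells apart in Aged and Young.

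Summed over the cells, the set held transcripts of epithelial and mesenchymal genes. Vim, the intermediate filament of mesenchymal cells, had 1833 CPM in KO and 2315 in WT, and 6075 in Aged and 4629 in Young tumour cells, against 1274, 1358, 2554 and 2305 CPM in the other barcodes. Dcn, a small matrix proteoglycan usual in fibroblasts, had 763, 765, 416 and 413 CPM in the tumour cells, against 31.9, 78.0, 19.4 and 24.1 CPM. Col1a2, a collagen I chain made by fibroblasts that the rule did not read, had no UMI in the tumour cells of any library, which allows up to 3.51 CPM in KO and 0.694 in WT, and 1.47 in Aged and 1.85 in Young. Cdh1, which encodes E-cadherin, had 2.34, 2.08, 0.981 and 1.23 CPM in the tumour cells of KO, WT, Aged and Young, against 33.3, 43.1, 18.2 and 20.9 CPM in the other barcodes. With each cell thinned to 10000 UMIs, Vim had no UMI in 0 of 17 KO, 4 of 98 WT, 1 of 62 Aged and 1 of 52 Young cells, and Dcn in 1, 7, 11 and 11 of the same cells. Col1a1, a collagen I gene that the rule capped, was at 0 in 10, 48, 20 and 17 of them. The absence of Col1a2 UMIs is thus no absence of collagen I transcripts. The 9 fibroblast markers, Dcn among them, summed to 863, 953, 864 and 906 CPM in all tumour cells of these libraries. The other barcodes had 669, 899, 1106 and 1051 CPM.

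Among measured genes, 1818 of 6685 (27.2%) were at least 2-fold higher and 1368 (20.5%) at least 2-fold lower in KO tumour cells than in the other KO barcodes. The shares were 23% and 19.8% for WT, 21.8% and 20.9% for Aged, and 24% and 18.1% for Young. Either way past 2-fold were 47.7% of measured genes in KO and 42.8% in WT, and 42.7% in Aged and 42.1% in Young, and since the cells were chosen by their transcripts these differences are a description. The genes highest over the other barcodes included several secreted proteins that the liver supplies to plasma. Fgb, the beta chain of fibrinogen, had 7101 CPM in KO and 8336 in WT, and 2525 in Aged and 2802 in Young tumour cells, against 89.0, 442, 90.3 and 129.8 CPM in the other barcodes. Trf, transferrin, had 3371, 5945, 3389 and 4851 CPM in the tumour cells, against 39.2, 375, 92.3 and 197 CPM. Clu, a secreted chaperone, had 1109.5, 1442, 1628 and 1653 CPM, against 13.9, 92.0, 28.8 and 67.5 CPM. Ifitm3, a membrane protein induced by interferons, was among the most abundant transcripts, with 3108, 3226, 4323 and 4088 CPM in the tumour cells and 334, 526, 278 and 511 CPM in the other barcodes.

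Some of these genes also differed most from cell to cell. When each cell was thinned to 10000 UMIs, which kept 17, 98, 62 and 52 tumour cells in KO, WT, Aged and Young, Fgb had the largest spread of 1105 genes considered, with a Fano factor (variance over mean of the UMIs per cell) of at least 86.5 in each of the WT, Aged and Young libraries; the median gene had 1.36. Fgb had a median of 9 UMIs in KO and 37.5 in WT, and 0 in Aged and 0 in Young cells, and its highest cell held 307, 683, 259 and 187 UMIs. It had no UMI in 6 of 17 KO cells, 14 of 98 WT cells, 41 of 62 Aged cells and 32 of 52 Young cells. Trf followed, with a Fano factor of at least 73.3, then S100a6, a calcium-binding protein, at 40.7, Ccl2, a monocyte chemoattractant, at 38.3, Fos, an immediate-early transcription factor, at 32.7, and the class II invariant chain Cd74 at 29.4. A minority of these Aged and Young cells thus carried all of the Fgb UMIs counted at this depth.

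Bfar, which the KO mice lack in CD8+ T cells, was also read in the tumour cells, which are taken here as cells of the injected line. That origin was not tested cell by cell. In WT, 5 tumour cells had Xist UMIs, and 1 cell held 15 of the 24. Bfar had 41.0 CPM in KO, against 31.0 CPM in WT tumour cells (ratio 1.32, interval 0.884 to 1.93), and 17.7 CPM in Aged, against 24.7 CPM in Young tumour cells (ratio 0.716, interval 0.443 to 1.15). In the other barcodes, mostly CD8+ T cells, it had 22.5 CPM in KO, against 31.9 CPM in WT, and 25.7 CPM in Aged, against 22.1 CPM in Young. None of the sources used here says which exons are removed, so 3′ counts do not check the deletion.

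Between KO and WT tumour cells 5927 genes counted as measured, which took 50 or more UMIs summed over the pair and 20 or more CPM in either library. Of these, 90 (1.52%) were at least 2-fold higher and 166 (2.8%) at least 2-fold lower in KO, 256 (4.32%) either way, and the median log2 ratio of all measured genes was 0.01, with 51.2% of them above 0. A ratio is that of the 2 CPM values, and the log2 ratio adds 1 CPM to each. In 11 of the 90 higher genes and 5 of the 166 lower genes a single cell held more than 50% of the UMIs in the library with the higher level. Of the gene lists, MHC class II and the interferon gamma list had the highest median ratios in KO over WT tumour cells. The lists were chosen with earlier results of these data known. Whether interferon gamma made these differences was not tested.

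All 6 measured class II genes were at least 2-fold higher in KO tumour cells, with a median log2 ratio of 2.16. H2-Aa had 918 CPM in KO, against 188 CPM in WT tumour cells (ratio 4.89, interval 4.43 to 5.40), and its UMIs were found in 15 of 17 KO cells and 37 of 112 WT cells. H2-Ab1, the beta chain that pairs with it, had 744 CPM in KO, against 145 CPM in WT (ratio 5.14, 4.60 to 5.75), and H2-Eb1 had 589 CPM in KO, against 138 CPM in WT (ratio 4.28, 3.79 to 4.83). The highest single KO cell held 21.4% of the H2-Aa UMIs, so the KO level was spread over several cells. Cd74, which escorts class II chains out of the endoplasmic reticulum, had 1966 CPM in KO, against 598 CPM in WT (ratio 3.29, 3.09 to 3.5). Both chains of the peptide loader were higher as well: H2-DMa had 157 CPM in KO, against 32.6 CPM in WT (ratio 4.81, 3.77 to 6.14), and H2-DMb1 had 149.8 CPM in KO, against 42.1 CPM in WT (ratio 3.56, 2.82 to 4.49). Ciita had 2.34 CPM in KO, against 2.77 CPM in WT, in 2 KO cells and 8 WT cells, too few for a direction. The other barcodes of the 2 libraries were close to each other, with 53 CPM of H2-Aa in KO and 56.0 CPM in WT.

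The same genes were higher in Aged than in Young tumour cells. Here 6448 genes were measured, of which 88 (1.36%) were at least 2-fold higher and 117 (1.81%) at least 2-fold lower in Aged, 205 (3.18%) either way, with a median log2 ratio of -0.10 and 39.3% of them above 0. Scaling by the median ratio of genes, which removes that shift, gave 118 higher and 96 lower. In 3 of the 88 higher genes and 11 of the 117 lower genes a single cell held more than 50% of the UMIs of the library with the higher level. Of the 6 class II genes, 5 were at least 2-fold higher in Aged, with a median log2 ratio of 1.39. H2-Aa had 585 CPM in Aged, against 174 CPM in Young tumour cells (ratio 3.36, 2.95 to 3.84), in 57 of 77 Aged cells and 29 of 85 Young cells. H2-DMb1, the exception, had 87.3 CPM in Aged, against 54.3 CPM in Young (ratio 1.61, 1.24 to 2.10). H2-Ab1 had 437 CPM in Aged, against 205 CPM in Young (ratio 2.13, 1.88 to 2.43); among cells with at least 10000 UMIs its log2 ratio was 0.97, under 2-fold. Cd74 had 2179.9 CPM in Aged, against 886 CPM in Young (ratio 2.46, 2.32 to 2.61).

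In the Young library a single cell held 54.3% of the H2-Aa UMIs, 69.3% of H2-Ab1, 65.5% of H2-Eb1 and 39.9% of Cd74. Without tumour cells that had more than 1 Ptprc UMI, which left 76 Aged and 82 Young cells, the log2 ratio of H2-Aa was 2.61 and that of H2-Ab1 2.44, against 1.74 and 1.09 over all cells. The other barcodes went the opposite way in this pair, with 275 CPM of H2-Aa in Aged and 775 CPM in Young.

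**Figure D2:**
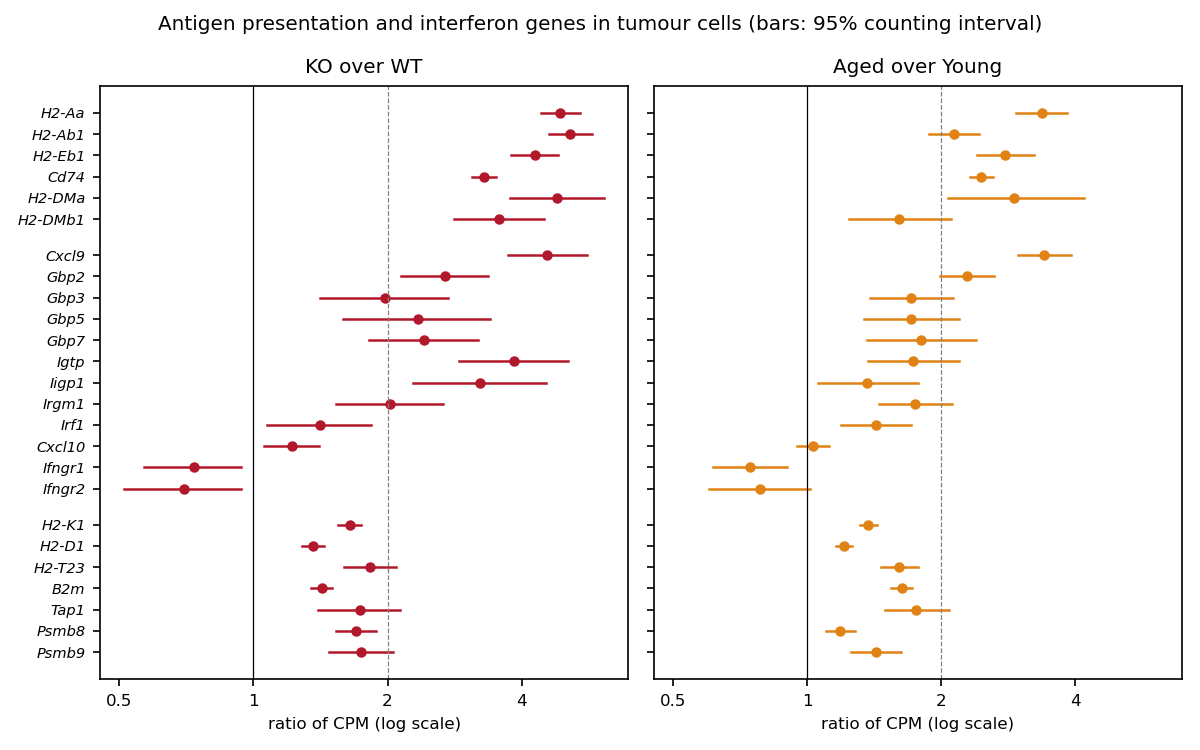
Ratio of CPM in the tumour cells, KO over WT and Aged over Young, with exact 95% counting intervals, for genes of the class II, interferon gamma and class I lists; the axis is logarithmic and the dashed line in each panel marks 2-fold. Class II genes lie beyond it in KO over WT, H2-DMb1 falls short of it in Aged over Young, and class I genes lie mostly between 1-fold and 2-fold in both pairs.

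Markers of cells that express class II by profession were read beside these values. The summed level of 7 dendritic cell markers without H2-Ab1 was 29.3 CPM in KO, against 46.2 CPM in WT tumour cells, with 6 and 4 of the 7 at 0, and 127 CPM in Aged, against 76.5 CPM in Young, with 4 and 1 at 0. The 10 monocyte or macrophage markers summed to 8.19 CPM in KO, against 14.3 CPM in WT, with 9 and 6 at 0, and to 52.0 CPM in Aged, against 79.6 CPM in Young, with 5 and 1 at 0. The 5 B cell markers summed to 0 CPM in KO and 2.08 in WT, and 0 in Aged and 1.85 in Young. Ccr7, which mature dendritic cells and naive T cells also express, made up 29.3, 43.0, 124 and 62.3 CPM of the dendritic sums in KO, WT, Aged and Young. The lysosomal Cd68 made up 8.19, 9.48, 46.6 and 17.9 CPM of the macrophage sums. Cells without a UMI of Lyz2, C1qa, C1qb, C1qc or Flt3 numbered 17 in KO and 110 in WT, and 67 in Aged and 73 in Young. Their class II median log2 ratio was 2.14 for KO over WT and 2.28 for Aged over Young. Cells without a UMI of any of the 17 macrophage and dendritic cell markers were fewer, 6 in KO and 46 in WT, and 23 in Aged and 54 in Young. In these the class II median was 1.65 for KO over WT, where all 6 measured genes stayed at least 2-fold higher, and 2.69 for Aged over Young, where all 4 measured genes did. Both settings were chosen after the data were seen, and over all tumour cells the medians were 2.16 and 1.39.

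Shares of cells with a UMI were compared at equal depth, since the tumour cells of KO were the deepest. With every cell thinned to 2000 UMIs, H2-Aa was found in 64.7% of 17 KO cells (interval 38.3 to 85.8) and 11.6% of 112 WT cells (6.33 to 19). At that depth it was found in 50% of 76 Aged cells (38.3 to 61.7) and 13.4% of 82 Young cells (6.89 to 22.7). In T cells, taken as barcodes with over 1 CD3 UMI and under 20 marker UMIs, the same share was 0.633% in KO and 0.720% in WT, and 1.90% in Aged and 4.67% in Young. Mouse CD8+ T cells normally lack class II, and their median depth before thinning was 6820, 6280, 5762.5 and 4460 UMIs. Without thinning, 88.2% of KO, 33.0% of WT, 74.0% of Aged and 34.1% of Young tumour cells had an H2-Aa UMI, against 1.61%, 1.56%, 3.99% and 6.89% of these T cells. By this share of cells, the tumour cells of all 4 libraries were above the T cells of their own library at equal depth. By summed level against the other barcodes, the median class II log2 ratio was 3.73 (KO), 1.57 (WT), 1.09 (Aged) and -1.65 (Young).

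**Figure D3:**
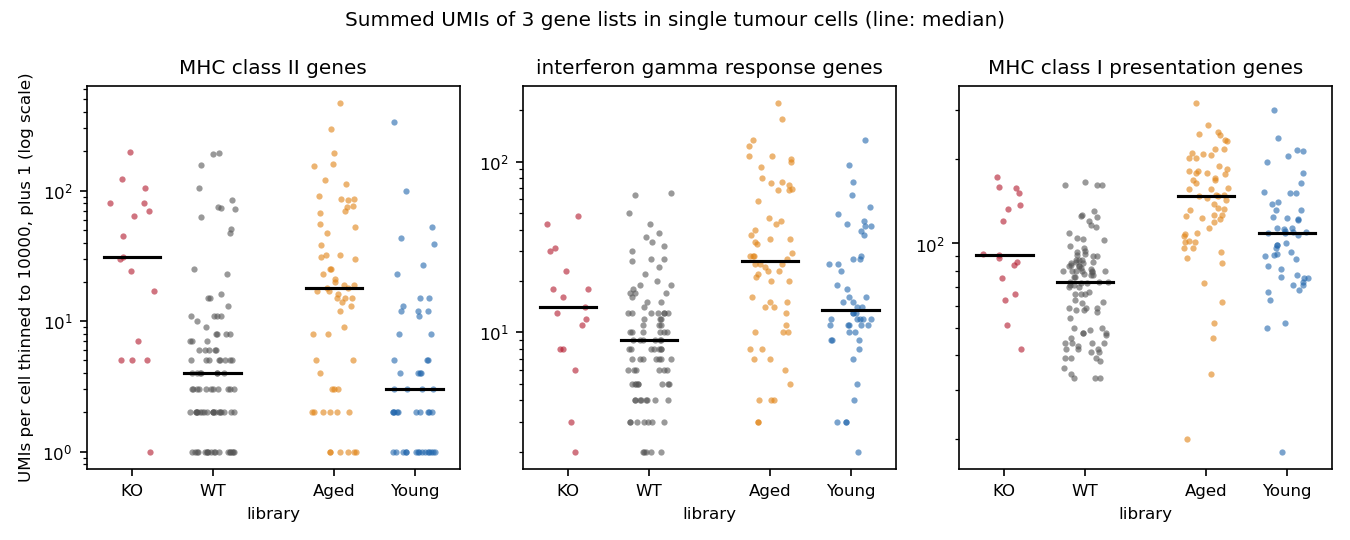
UMIs per tumour cell of the class II, interferon gamma and class I lists after thinning each cell to 10000 UMIs, plus 1 on a log axis, in KO, WT, Aged and Young (17, 98, 62 and 52 cells); the line is the median. Class II medians are 30 in KO and 3 in WT, 17 in Aged and 2 in Young, and single cells in every library exceed 190. The class II 90th percentile in Young is 25.6.

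Within each library the class II level varied widely among tumour cells. At 10000 UMIs the class II genes summed to a median of 30 UMIs per KO cell and 3 per WT cell, and to 17 per Aged cell and 2 per Young cell. The highest cell reached 195 UMIs in KO and 193 in WT, and 464 in Aged and 334 in Young. No class II UMI was found in 1 KO, 18 WT, 6 Aged and 15 Young cells. The cells overlapped between the libraries of each pair, and high cells occurred in WT and Young too. Across cells, class II UMIs and interferon gamma list UMIs went together with a Spearman rho of 0.67 in 17 KO cells, 0.27 in 98 WT cells, 0.58 in 62 Aged cells and 0.52 in 52 Young cells. Class II and marker list UMIs had rho values of 0.24, 0.05, -0.12 and 0.07. Class II and pan leukocyte list UMIs had 0.39 in KO and -0.02 in WT, and 0.19 in Aged and 0.28 in Young cells. The cells of a library share its sort, its free RNA and 3 pooled mice.

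Of the 23 listed interferon gamma response genes, 15 were measured in KO and WT tumour cells; 8 were at least 2-fold higher in KO, none lower, 12 (80%) had a log2 ratio above 0, and the median log2 ratio was 1.01. Cxcl9, a chemokine that draws Cxcr3-bearing T cells, had 218 CPM in KO, against 47.6 CPM in WT (ratio 4.57, 3.73 to 5.6), with 50% of the KO UMIs in a single cell. The Cxcl9 log2 ratio was -2.74 over the 6 KO and 46 WT cells without macrophage or dendritic cell marker UMIs. Igtp had 107 CPM in KO, against 27.7 CPM in WT (ratio 3.84, 2.89 to 5.08), Iigp1, a related GTPase, 67.9 CPM in KO, against 21.0 CPM in WT (ratio 3.23, 2.28 to 4.53), and Gbp2 145 CPM in KO, against 53.9 CPM in WT (ratio 2.69, 2.15 to 3.36). Igtp was under 2-fold, at a log2 ratio of 0.89, over every kept barcode with at least 20 marker UMIs, and Gbp2 was so at 0.95 with each cell weighing the same and at 0.93 in the 6 KO and 46 WT cells. Cxcl10, another Cxcr3 ligand, differed little, with 281 CPM in KO, against 230.3 CPM in WT (ratio 1.22, 1.06 to 1.41). Both receptor chains were on the other side: Ifngr1 had 87.8 CPM in KO, against 119.5 CPM in WT (ratio 0.734, 0.569 to 0.937) and Ifngr2 60.9 CPM in KO, against 87.2 CPM in WT (ratio 0.698, 0.512 to 0.935).

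In the transfer pair 19 genes of that list were measured; 3 were at least 2-fold higher in Aged, none lower, 16 (84.2%) had a log2 ratio above 0 and the median was 0.74. The 3 were Cxcl9 with 558 CPM in Aged, against 164 CPM in Young (ratio 3.40, 2.98 to 3.91), Gbp2 with 380.5 CPM in Aged, against 167 CPM in Young (ratio 2.28, 1.99 to 2.63) and Cd274. Cd274, which encodes the inhibitory ligand PD-L1, had 85.3 CPM in Aged, against 20.4 CPM in Young (ratio 4.19, 2.88 to 6.28), in 34 of 77 Aged cells and 20 of 85 Young cells. In the other pair Cd274 was too low to be measured, with 8.19 CPM in KO, against 4.85 CPM in WT. Cxcl10 had 663 CPM in Aged, against 644 CPM in Young (ratio 1.03, 0.949 to 1.12). Ifng itself was near 0 in the tumour cells, with 1.17 CPM in KO and 0.925 in WT, and 0 in Aged and 2.47 in Young, against 168, 138, 299 and 208 CPM in the other barcodes.

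MHC class I genes differed less. Of 19 listed, 18 were measured in KO and WT and none reached 2-fold; 15 (83.3%) had a log2 ratio above 0 and the median was 0.46. H2-K1, a classical heavy chain, had 1751 CPM in KO, against 1064 CPM in WT (ratio 1.65, 1.55 to 1.75), B2m had 1917 CPM in KO, against 1348 CPM in WT (ratio 1.42, 1.35 to 1.5), and Tap1 had 142 CPM in KO, against 81.8 CPM in WT (ratio 1.73, 1.40 to 2.13). In Aged over Young 16 of 19 (84.2%) were above 0 with a median of 0.35, and the exception past 2-fold was Nlrc5, the class I coactivator, with 20.6 CPM in Aged, against 9.25 CPM in Young (ratio 2.23, 1.21 to 4.32). The Nlrc5 log2 ratio was under 1 in 4 of the alternatives, the lowest being 0.54. H2-K1 had 2780.0 CPM in Aged, against 2026 CPM in Young (ratio 1.37, 1.31 to 1.43), and B2m had 2089 CPM in Aged, against 1282 CPM in Young (ratio 1.63, 1.55 to 1.72). Of 26 type I interferon response genes measured in KO and WT, 2 were at least 2-fold higher in KO, Ifi44 and Oas3, with a list median of 0.40; of 29 in Aged and Young, 2 were higher in Aged, Ifit3 and Ifit3b, with a list median of 0.18.

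**Figure D4:**
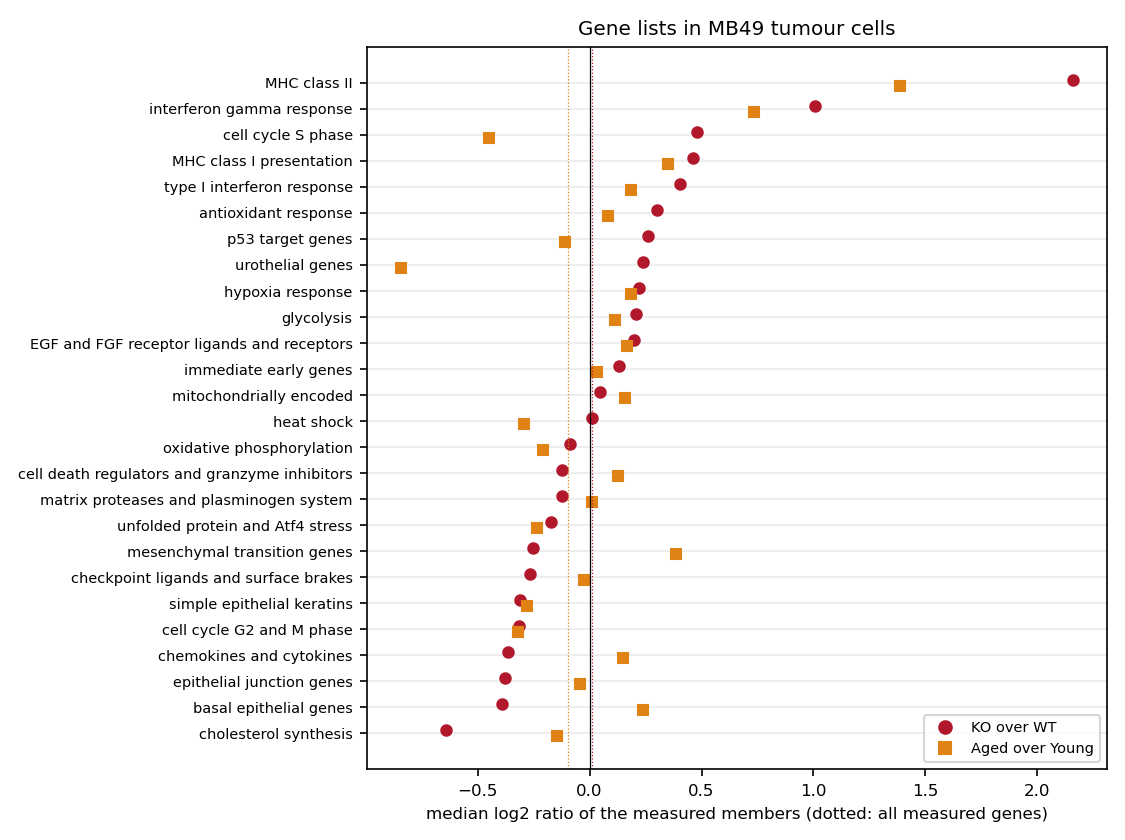
Median log2 ratio of each programme list with at least 3 measured members, KO over WT (circles) and Aged over Young (squares) tumour cells; the dotted lines are the medians of all measured genes, 0.01 and -0.10. The class II list is farthest to the right in both pairs, at 2.16 and 1.39, followed by the interferon gamma list at 1.01 and 0.74.

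Of 5438 genes measured in both pairs, 56 were at least 2-fold higher in KO and 47 in Aged, and 10 were in both sets, which is 17.9% of the KO set and 21.3% of the Aged set. Besides Cd74, H2-Aa, H2-Ab1, H2-DMa, H2-Eb1, Cxcl9 and Gbp2 these were Gm12216, Hmox1 and Nos2. Nos2, the inducible nitric oxide synthase, had 167 CPM in KO, against 43.2 CPM in WT (ratio 3.87, 3.09 to 4.84), with 63.6% of the KO UMIs in a single cell. In the transfer pair it was broader, with 159 CPM in Aged, against 24.7 CPM in Young (ratio 6.46, 4.64 to 9.21), in 48 of 77 Aged cells and 11 of 85 Young cells. Hmox1, which breaks down haem, had 103 CPM in KO, against 27.5 CPM in WT (ratio 3.74, 2.81 to 4.97), with 58.0% of the KO UMIs in a single cell, and 219.7 CPM in Aged, against 96.8 CPM in Young (ratio 2.27, 1.89 to 2.74). Nos2, Hmox1 and Gbp2 did not hold 2-fold under every alternative. In the cells without macrophage or dendritic cell marker UMIs the log2 ratio of Nos2 was -5.25 in KO over WT and 1.00 in Aged over Young, and that of Hmox1 -1.11 and 0.93. Over every kept barcode with at least 20 marker UMIs Hmox1 had a log2 ratio of 0.80 in KO over WT, and with each cell weighing the same 0.87 in Aged over Young. The 2 pairs share no library. On the lower side, 133 of the 5438 genes were at least 2-fold lower in KO and 64 in Aged, and 11 were in both sets.

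H2-Aa was also read in barcodes next to the rule. Barcodes with at least 20 marker UMIs and over 1 CD3 UMI, but little collagen, had 614 CPM of H2-Aa in KO (12 barcodes) and 158 CPM in WT (75), and 553 CPM in Aged (18) and 69.7 CPM in Young (69). Barcodes with marker UMIs and collagen, but at most 1 CD3 UMI, had 207 CPM in KO (9) and 97.2 CPM in WT (52), and 843 CPM in Aged (46) and 49.6 CPM in Young (71). T cells without tumour markers had 26.5 CPM in KO, against 31.0 CPM in WT, and 148 CPM in Aged, against 675 CPM in Young. The KO over WT ratio of H2-Aa was therefore 4.89 in the tumour cells, 3.87 in the CD3-bearing set and 2.13 in the collagen-bearing set, and the Aged over Young ratio 3.36, 7.93 and 17 in the same sets. In T cells the ratios were 0.857 and 0.219. For H2-Aa, the barcodes left out by the CD3 and collagen limits thus had the same direction as the tumour cells, with ratios of other sizes, and the T cells did not.

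**Figure D5:**
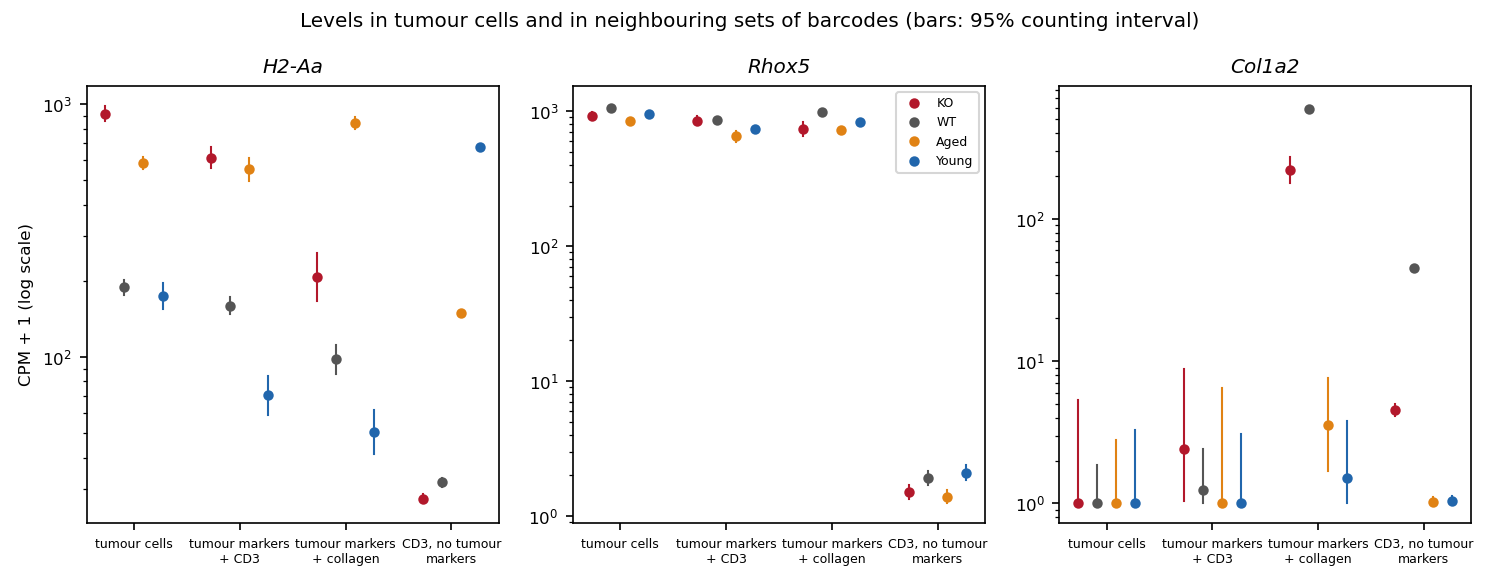
CPM plus 1 on a log axis of H2-Aa, Rhox5 and Col1a2 in 4 sets of barcodes of the KO, WT, Aged and Young libraries: tumour cells, barcodes with tumour markers and CD3, barcodes with tumour markers and collagen, and CD3 cells without tumour markers. H2-Aa is higher in KO than WT and in Aged than Young in each of the 3 marker-bearing sets, and lower in both comparisons in CD3 cells.

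Chemokine and cytokine genes went both ways in KO over WT. Of 21 measured, 3 were at least 2-fold higher in KO and 5 at least 2-fold lower, with a median log2 ratio of -0.36. Over all measured genes 1.52% were higher and 2.8% lower. Ccl2, which recruits monocytes through Ccr2, had 563 CPM in KO, against 1689 CPM in WT tumour cells (ratio 0.333, 0.303 to 0.365), in 9 of 17 KO cells and 84 of 112 WT cells. Its neighbour in the monocyte-attracting family, Ccl7, had 3.51 CPM in KO, which is 3 UMIs, and 92.5 CPM in WT (ratio 0.0380, 0.00780 to 0.112). Il33, an alarmin, had 74.9 CPM in KO, against 202 CPM in WT (ratio 0.370, 0.283 to 0.478). On the higher side beside Cxcl9 were Cxcl3, a neutrophil attractant, with 318 CPM in KO, against 86.9 CPM in WT (ratio 3.66, 3.12 to 4.29) and Cxcl15 with 104 CPM in KO, against 19.2 CPM in WT (ratio 5.43, 3.98 to 7.41); single KO cells held 50.4% and 62.9% of their UMIs. In Aged over Young, 2 of 21 were higher, Cxcl9 and Ccl20, and none lower, against 1.36% and 1.81% of all measured genes. Ccl2 had 3148 CPM in Aged, against 2393 CPM in Young (ratio 1.32, 1.26 to 1.37).

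The genes farthest below WT in KO tumour cells included secreted plasma proteins and an adhesion molecule. Serpina1a, an alpha-1 antitrypsin gene, had no UMI in KO and 193 CPM in 16 of 112 WT cells. It was 55.1-fold lower when KO is set to the limit of 3.51 CPM that a count of 0 allows. Ttr, transthyretin, had no UMI in KO and 40.2 CPM in 8 of 112 WT cells, 11.5-fold lower by the same limit. Single WT cells held 22.8% of the Serpina1a and 33.3% of the Ttr UMIs. These folds cover counting error of summed UMIs only. With 17 KO cells, genes carried by so few WT cells can be missed altogether. Serpina1b had 38.6 CPM in KO, against 447 CPM in WT (ratio 0.0864, 0.0593 to 0.122) and Serpina1c 7.02 CPM in KO, against 201 CPM in WT (ratio 0.0349, 0.0128 to 0.0762). The Serpina1 genes are near-identical copies, so their separate counts are uncertain. Epcam, an epithelial adhesion molecule, had 2.34 CPM in KO, which is 2 UMIs of a single cell, and 46.2 CPM in 13 WT cells (ratio 0.0506, 0.00609 to 0.185). Timp1, an inhibitor of matrix proteases, was lower over a broader base, with 99.5 CPM in 12 of 17 KO cells and 375 CPM in 97 of 112 WT cells (ratio 0.265, 0.211 to 0.330). At the other end, Wfdc18 had 64.4 CPM in KO, against 8.32 CPM in WT, and Mmp3, a stromelysin, 58.5 CPM in KO, against 9.48 CPM in WT; a single KO cell held 87.3% of the Wfdc18 UMIs and all of the Mmp3 UMIs. Mmp3 and Epcam turned direction in the 6 KO and 46 WT cells without macrophage or dendritic cell marker UMIs, with log2 ratios of -3.96 and 0.97.

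Of the genes named for Aged over Young, Nppb, the precursor of brain natriuretic peptide, had the largest ratio, with 81.9 CPM in 22 Aged cells and 3.08 CPM in 5 Young cells (ratio 26.6, 11.2 to 82.8). Prl2c3 had 164 CPM in 10 Aged cells and 17.3 CPM in 4 Young cells (ratio 9.51, 6.46 to 14.5) and Prl2c2 81.9 CPM in 13 Aged cells and 10.5 CPM in 4 Young cells (ratio 7.81, 4.73 to 13.7); these prolactin-family genes are close copies, and their counts are uncertain in the same way. Lgals3, which encodes galectin 3, had 4204 CPM in Aged, against 1924 CPM in Young (ratio 2.19, 2.10 to 2.28), in 76 of 77 Aged cells and 82 of 85 Young cells. Ddit3, a transcription factor of the integrated stress response, had 72.1 CPM in Aged, against 18.5 CPM in Young (ratio 3.9, 2.62 to 5.98). On the lower side, Lama3, a laminin chain of epithelial basement membranes, had 19.6 CPM in Aged, against 77.1 CPM in Young (ratio 0.254, 0.174 to 0.366), and Mmp3 11.8 CPM in Aged, against 59.2 CPM in Young (ratio 0.199, 0.121 to 0.314). Among the other genes named at this end, Tuba3a, Serpina1d and Bambi had over 50% of their Young UMIs in a single cell. In the 23 Aged and 54 Young cells without macrophage or dendritic cell marker UMIs the log2 ratio of Prl2c2 was -2.31. Over every kept barcode with at least 20 marker UMIs that of Lama3 was -0.56 and that of Mmp3 -0.97.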

How the data were processed

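Single-cell RNA was measured in 4 droplet libraries of CD45+ CD8+ sorted tumour cells. The files as deposited hold raw UMI counts of 31253 genes per barcode. The authors made them with Cell Ranger 6.1.1 (KO, WT) and 7.1.0 (Aged, Young), per the file headers; Cell Ranger 6.0.0, Seurat 3.2.3 and mm10 stand in the submitters' processing notes. None of the sources used here states a cell filter before deposit.

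From these counts, UMIs were summed over the tumour cells of each library and scaled to CPM (Python 3.11.15, numpy 2.4.6, scipy 1.17.1, pandas 2.3.3). Measured genes had 50 or more UMIs summed over a pair and 20 or more CPM in either library, and were counted as higher or lower past 2-fold on the log2(CPM + 1) scale. Intervals are exact: Clopper-Pearson for shares, Poisson-based for levels and ratios; the limit for a count of 0 is 3 counts. They cover counting error only. No doublet caller was run; the rule itself drops barcodes with tumour markers and over 1 CD3 UMI, and free RNA was not subtracted. Cells were thinned once, with a fixed seed, to 2000 or 10000 UMIs. The steps were tested on simulated sums drawn with counting error alone, which is what the intervals assume, and with no spread among cells. Of 200 genes changed 4-fold among 31253, 100% were recovered in each pair. Of the unchanged measured genes, 31 of 5546 (KO over WT) and 8 of 6012 (Aged over Young) were called. The intervals covered the true ratio for 95.1% (KO over WT) and 95.4% (Aged over Young) of the unchanged genes. This checked the arithmetic and does not show that the intervals cover the spread among tumour cells.

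Named genes are the rule's markers, the 10 largest and 10 smallest ratios of each pair apart from receptor segments, mitochondrial, ribosomal, haemoglobin and unnamed genes, other cell types' markers and genes under 0.2 times the level of the other barcodes, the 10 highest over the other barcodes and the 10 most variable genes, and the ends and best-known members of each list. The members and lists were chosen with earlier results of these data known. Some listed genes are counted but not reported by name here. Alternatives varied the marker limit, the caps, depth, weighting, scaling, filter, pseudocount and fold.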

Additional observations from a re-analysis of the deposited data

How the results depend on the processing

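No paired analysis was possible because each group had 1 library and no test was run. All 6 measured class II genes were at least 2-fold higher in KO under every alternative tried; the list's median log2 ratio ran between 1.65 and 2.23 for KO over WT and 1.30 and 2.69 for Aged over Young. For the interferon gamma list it ran between 0.64 and 1.06, and 0.64 and 0.92. Shares moved most with the caps: without the CD3 cap they were 0.345% in KO, 1.99% in WT and 1.46% in Young; without the collagen and Lyz2 caps 1.74% in WT, 1.40% in Aged and 1.48% in Young; and with the marker limit set relative to each cell's depth 1.22% in Young. Counts of genes past 2-fold depended more on the choices. With every kept barcode of at least 20 marker UMIs, chosen after seeing the data, 94 were lower in KO, and 40 higher and 62 lower in Aged. In cells without a UMI of 17 macrophage and dendritic cell markers, also chosen after seeing the data, 137 were higher and 352 lower in KO and 53 higher in Aged. There 10 named genes turned direction, with KO over WT log2 ratios of -2.74 for Cxcl9, -5.25 for Nos2, -1.11 for Hmox1, -3.96 for Mmp3 and 0.97 for Epcam. The Aged over Young log2 ratios were 0.47 for Serpina1b, -2.31 for Prl2c2, -0.65 for Dynap, 0.093 for Tuba3a and 1.43 for Serpina1d. With each cell weighing the same, 184 were higher in KO, and 175 higher and 311 lower in Aged. Without a filter on low counts, 871 were higher and 1194 lower in KO, and 641 higher and 1099 lower in Aged. A pseudocount of 5 gave 57 higher and 75 lower in Aged, and a 1.5-fold limit 465 higher and 526 lower in KO and 339 higher and 526 lower in Aged. Without the filter the Aged over Young medians of 2 marker lists turned to -2.46 (monocyte or macrophage, main value 1.33) and -1.05 (dendritic cell, main value 1.03), since genes with few UMIs then entered. Of 761 list medians under alternatives, 722 moved by less than their limit, 37 by more and 2 turned direction; of 935 values of named genes, 754 stayed, 171 moved and 10 turned. Depth limits the KO library, where 17 cells and 854433 UMIs carry every value.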

Other observations

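Metabolic and cell cycle lists of the tumour cells had median log2 ratios under 1 either way, with single members past 2-fold. Among all measured genes, 51.2% had a log2 ratio above 0 in KO over WT and 39.3% in Aged over Young, and counts above 0 are to be read beside these. Of 12 cholesterol synthesis genes measured in KO and WT tumour cells, none had a log2 ratio above 0; the median was -0.64, and 2 were at least 2-fold lower in KO. Fdft1, squalene synthase, had 17.6 CPM in KO, against 55.0 CPM in WT (ratio 0.319, interval 0.176 to 0.537). In Aged over Young 4 of 14 (28.6%) were above 0 and the median was -0.15. Of 21 S phase genes 20 (95.2%) were above 0 in KO over WT, with a median of 0.48 and none past 2-fold, while in Aged over Young 1 of 20 (5%) was above 0, with a median of -0.45 and 2 at least 2-fold lower. Rrm2, which makes deoxynucleotides, had 146 CPM in Aged, against 293 CPM in Young (ratio 0.497, 0.429 to 0.576), and Uhrf1, which maintains DNA methylation, 27.9 CPM in Aged, against 65.4 CPM in Young (ratio 0.428, 0.304 to 0.595). For the G2 and M phase list the medians were -0.32 in KO over WT and -0.32 in Aged over Young. Depth and cell number differed between the libraries of each pair as given above, and their part in these shifts was not tested.

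All 15 measured glycolysis genes were above 0 in KO over WT, with a median of 0.21, and 10 of 16 (62.5%) in Aged over Young, with a median of 0.11. None of 11 heat shock genes was above 0 in Aged over Young, where the median was -0.29 and the median of all measured genes -0.10. Of 12 mesenchymal genes measured in KO and WT, 3 (25%) were above 0 and 2 at least 2-fold lower in KO, with a median of -0.25; in Aged over Young 10 of 12 (83.3%) were above 0, 1 was higher and 1 lower past 2-fold, and the median was 0.39. S100a4 had 48.0 CPM in KO, against 217 CPM in WT (ratio 0.221, 0.158 to 0.303), while the other barcodes had 1509.9 CPM in KO and 978 CPM in WT. Snai1, a repressor of epithelial genes, had 1.17 CPM in KO, which is 1 UMI, and 26.4 CPM in WT (ratio 0.0444, 0.00111 to 0.252). Zeb2, another such repressor, had 54.4 CPM in Aged, against 25.9 CPM in Young (ratio 2.10, 1.46 to 3.07), and Snai1 8.83 CPM in Aged, against 22.8 CPM in Young (ratio 0.387, 0.207 to 0.697), with a log2 ratio of -0.66 over every kept barcode with at least 20 marker UMIs. Mast cell and basophil markers summed to 2.34 CPM in KO, against 53.9 CPM in WT tumour cells, and to 15.2 CPM in Aged, against 25.3 CPM in Young tumour cells, while the other barcodes had 428, 1068, 5.43 and 14.9 CPM in KO, WT, Aged and Young. At 10000 UMIs a single WT cell held 43 of these UMIs, and 89 of 98 WT cells had none. Genes of the Y chromosome had 0 CPM in KO and 2.08 in WT, and 20.6 in Aged and 21.6 in Young tumour cells, against 0, 1.16, 168 and 146 CPM in the other barcodes, and were found in 0, 2, 15 and 15 tumour cells.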
